A study of Mus musculus with 12 samples.

Results

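Interferon-stimulated genes are switched on when a cell senses interferon, and 41 of them were followed here among the 52636 genes counted in the livers of adult male mice. Type I and type III interferons are secreted when a cell detects foreign or misplaced nucleic acid, and the type II interferon by activated T and NK cells. Type I and type III interferons signal through Jak1 and Tyk2 to a complex of transcription factors that includes Stat2 and Irf9 and binds a DNA element called the interferon-stimulated response element (ISRE). The type II interferon acts mainly through another element, the gamma-activated site (GAS). The genes they induce block viral replication, sense nucleic acid, attack intracellular parasites and present antigen, and in the liver they can be expressed by hepatocytes as well as by resident immune cells. The 41 genes were chosen by name as known targets of type I and type II interferon. The rule uses no values, but it was set with earlier results of these data known, as was the split of the mice into sets below.

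RNA-seq was performed on the left lateral lobe of the liver of 12 male C57Bl/6J mice at 16 weeks of age, with 1 library per mouse. The 6 VDD-F1 mice were born to dams that had eaten a vitamin D deficient diet before mating and through pregnancy, supplemented with calcium gluconate, and the 6 VDS-F1 mice to dams on the matched sufficient diet. All dams received the sufficient diet after delivery and all offspring ate it after weaning, so the adult diet was the same in both groups. Vitamin D in the dams recovers only gradually after such a switch, per the study, so the exposure reached into early postnatal life. The litter of each mouse is not given. The p-values therefore measure the spread between these mice, some of which may be littermates. Among the measurements published with the study, VDS3, VDS4, VDS5, VDS6, VDD4, VDD5 and VDD6 have a liver weight and VDS1, VDS2, VDD1, VDD2 and VDD3 have none. They are called the 7 listed and the 5 unlisted mice here. These sets are not part of the sample labels, and what else they share, such as a litter, a cohort or a day of dissection, is not given and cannot be told apart here.

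Each library held 14275793 to 20815066 fragments counted on genes. Unmapped fragments made up 23.5% to 37.9% of the listed and 26.3% to 34.2% of the unlisted libraries. Multimapping fragments made up 6.69% to 8.92%, with a median of 7.16%, in listed and 7.66% to 8.56%, with a median of 8.02%, in unlisted libraries. VDS6 stood apart with 11.1% of fragments outside annotated genes. The part of these measures in the results was not tested. Markers of hepatocytes, the main cells of the liver, summed to 85261 to 112473 CPM (counts divided by library size, with TMM scaling factors) in the 12 mice. All 41 genes had counts. Of these, 39 passed the filter of a mean count of 12 and were tested among 12453 genes. Oas1g and Mx1 did not pass. Oas1g, a near-identical copy of Oas1a, ranged from 0 to 2.19 CPM and was highest in VDD2. Mx1 ranged from 0 to 0.826 CPM and was highest in VDS2.

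The ISRE and GAS were searched for in the DNA around the start of these genes. RefSeq promoter windows (GRCm38.p6, 250 bases before to 50 bases after the start) were found for 31 of the 41 genes. The ISRE core, searched as GAAANNGAAA on both strands, lay in a window of 17 of these 31 genes (54.8%), and 3.99% of the 27025 genes with a window held it. The GAS core, searched as TTCNNNGAA, lay in a window of 6 of the 31 genes (19.4%) against 9.55% of all genes. The 2 motifs overlapped in 1 window. A match describes the letters and is not a measured binding site. The stretches below belong to an Ifit, the Isg15 modifier, viperin, an Oas enzyme, tetherin and a pair of interferon-inducible GTPases, with 1 ISRE core, or its reverse complement, in capitals in each. In Isg15 and Bst2, further matches that overlap or adjoin the marked core are left in lower case.
Ifit1, chr19:34640773-34640806, plus strand: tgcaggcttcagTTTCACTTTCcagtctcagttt
Ifit1, chr19:34640792-34640825, plus strand: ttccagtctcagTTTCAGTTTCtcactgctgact
Isg15, chr4:156200875-156200908, minus strand: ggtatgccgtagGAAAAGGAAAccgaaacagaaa
Rsad2, chr12:26456551-26456584, minus strand: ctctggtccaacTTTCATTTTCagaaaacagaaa
Oas3, chr5:120777713-120777746, minus strand: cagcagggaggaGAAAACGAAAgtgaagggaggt
Bst2, chr8:71537581-71537614, minus strand: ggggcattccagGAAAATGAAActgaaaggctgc
Gbp2, chr3:142620592-142620625, plus strand: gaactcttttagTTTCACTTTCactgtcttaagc
Igtp, chr11:58199510-58199543, plus strand: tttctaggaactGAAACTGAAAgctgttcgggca
Distances here are to the RefSeq start of the window, which can differ from the start of the GENCODE gene whose coordinates are given with the values below. The core in Igtp ended 24 bases before that start and the one in Bst2 120 bases before it. The 2 cores of Ifit1 ended 75 and 94 bases before it.

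These genes were expressed at low to moderate levels. Their mean over the 12 mice, in TPM (counts divided by gene length and then scaled to the same total in each library), had a median of 6.74 over the 39 genes tested, against 6.01 over all genes tested. Bst2, or tetherin, which holds budding virus at the cell surface, was highest at 171 ± 68.2 TPM (SD, n = 12). Iigp1, a GTPase that attacks the vacuoles of intracellular parasites, followed at 71.9 ± 21.2 TPM and Ifi27 at 68.8 ± 38 TPM. At the other end, Oas2 was at 0.511 ± 0.415 and Oas3 at 0.693 ± 0.389 TPM. The genes varied more between mice than most: their median biological coefficient of variation, estimated with diet alone in the model, was 30.8% against 18.7% over all genes tested. VDD2 had the highest CPM of the 12 mice in 24 of the 39 genes (61.5%) and in 18.6% of all genes tested. VDS1 was highest in 10 of the 39 and in 10.1% of all genes. Of the listed mice VDS5 was highest in 2 of the 39 and the other 6 in none, while each listed mouse was highest in 4.72% to 10.2% of all genes.

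**Figure D1:**
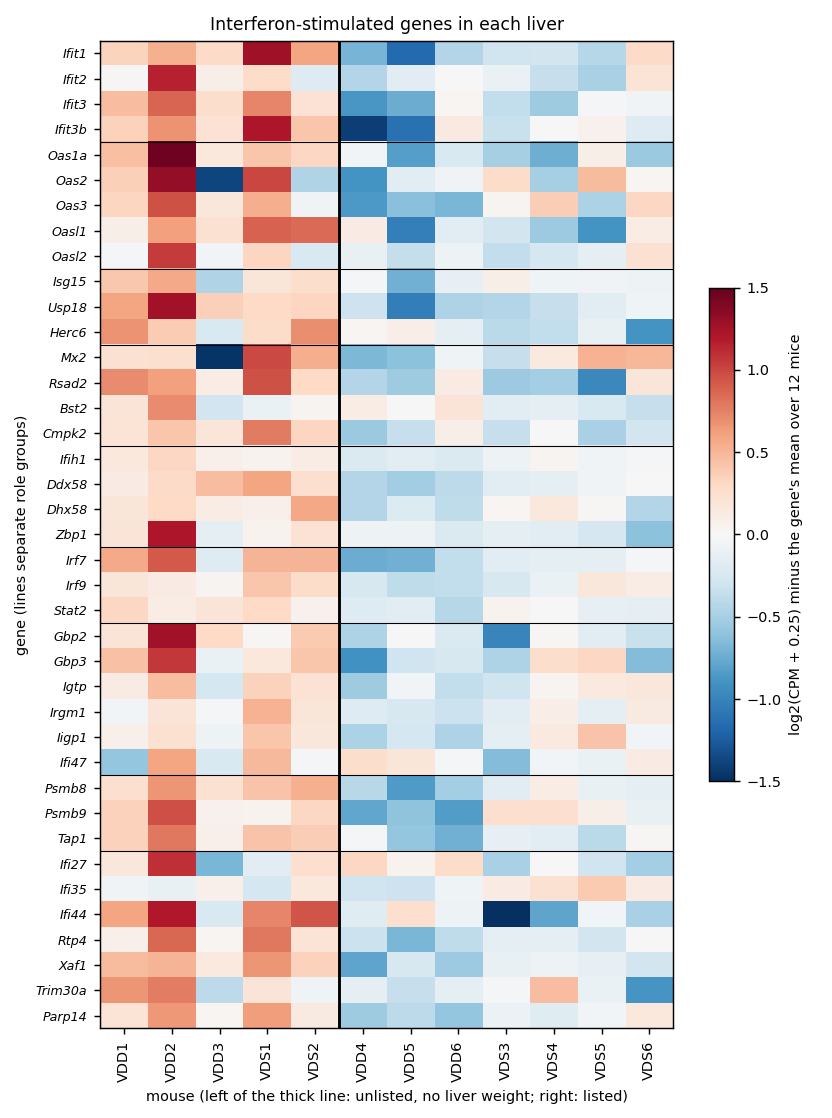
Heat map of the 39 tested interferon-stimulated genes (rows, by role) in the 12 mice (columns), coloured by log2(CPM + 0.25) minus the gene's mean over the mice. The 5 unlisted mice left of the thick line are mostly red and the 7 listed mice right of it mostly blue, with VDD2 highest in 24 genes.

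Prenatal vitamin D deficiency was the comparison the study was designed for. None of the 39 genes passed an adjusted p-value under 0.05 between VDD-F1 and VDS-F1 livers (edgeR quasi-likelihood test, Benjamini-Hochberg over all genes), where 0.0402% of all genes did. The log2 fold changes were positive for 16 genes and negative for 23, where 49.2% of all genes had negative values, with a median of -0.05 against 0.0041 over all genes, and ranged from -0.80 to 0.48. At an unadjusted p-value under 0.05 there were 4 genes, and 15.8% of all genes passed that mark. With the set of listed or unlisted mice added to the model there were 10, against 17.0%. Of these 10 only Bst2 had a positive value. Irf9, among those with negative values, had one of -0.29 in that model (unadjusted p = 0.00507, adjusted p = 0.118). No gene had CPM values that separated the 6 VDD-F1 from the 6 VDS-F1 mice, which 1.18% of all genes had.

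The lowest, median and highest level of Bst2 (ENSMUSG00000046718.8, chromosome 8, 71534255 to 71537456 in GRCm38) were 63.3, 86.3 and 126 CPM for VDD-F1 and 61, 69.6 and 79.7 CPM for VDS-F1 (log2 fold change 0.34, SE 0.13, unadjusted p = 0.0233, adjusted p = 0.240). The groups overlapped, and VDD2 was the highest mouse. Iigp1 had 157, 194 and 254 CPM for VDD-F1 and 196, 242 and 292 CPM for VDS-F1 on the same 3 measures (log2 fold change -0.31, SE 0.14, unadjusted p = 0.0413, adjusted p = 0.294). The other 2 genes are named because so few passed the mark. Mx2, which the annotation lists as a polymorphic pseudogene in this strain's reference, had a log2 fold change of -0.80 (SE 0.34, unadjusted p = 0.0305, adjusted p = 0.265). Ifi35 had one of -0.27 (SE 0.11, unadjusted p = 0.0355, adjusted p = 0.280).

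The transcription factors at the head of the response had small differences between the diets. Irf7, which drives the induction of type I interferon genes, had a log2 fold change of -0.07 (SE 0.27, unadjusted p = 0.810, adjusted p = 0.937). For Irf9, the DNA-binding partner of Stat2, it was -0.22 (SE 0.13, unadjusted p = 0.128, adjusted p = 0.455), with the caution that Irf9 overlaps Rnf31 on the same strand, so that reads in the overlap are not counted for either. Stat2 had -0.04 (SE 0.12, unadjusted p = 0.761, adjusted p = 0.919). Their groups overlapped in every case.

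**Figure D2:**
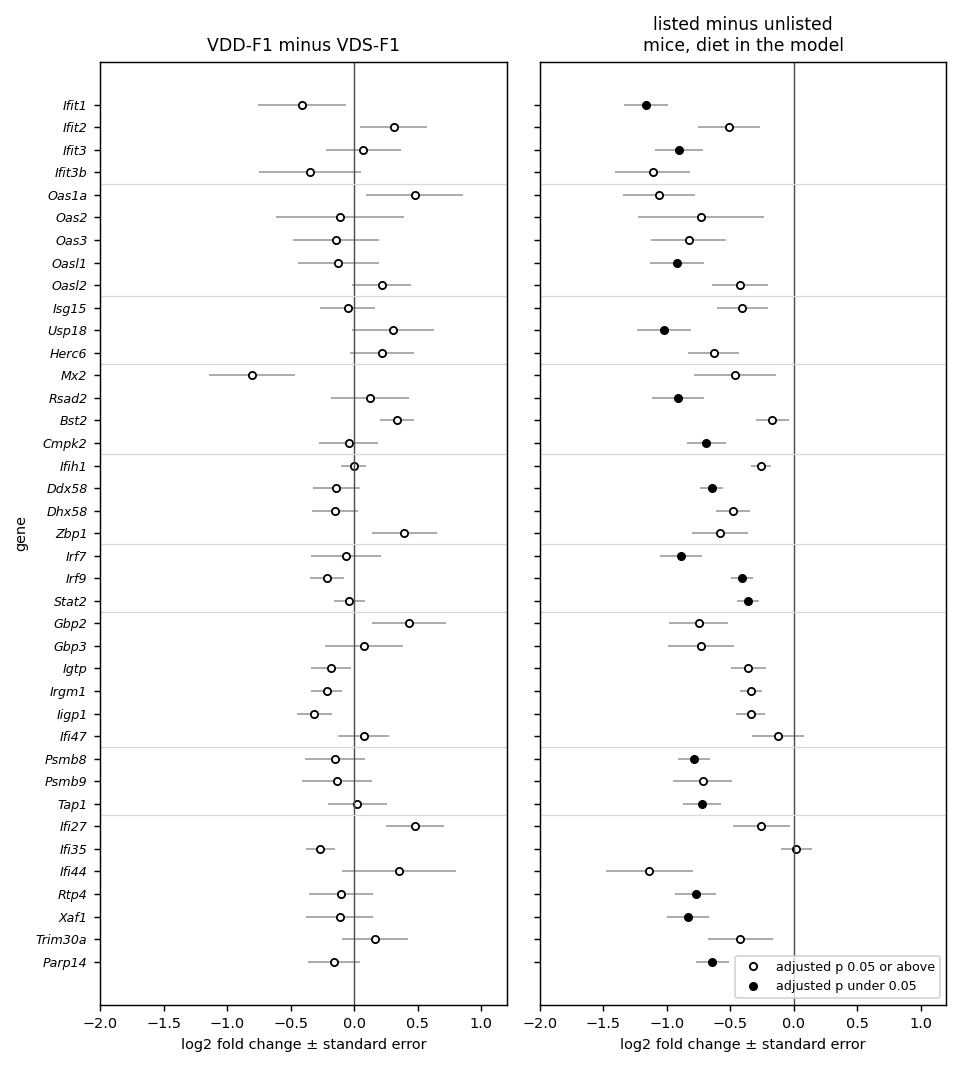
Log2 fold changes ± SE of the 39 genes (rows, by role) for VDD-F1 minus VDS-F1 (left) and for listed minus unlisted mice with diet in the model (right), from edgeR fits on 12453 genes in 12 mice. Filled points mark an adjusted p-value under 0.05, which 0 genes reach on the left and 15 on the right, where 38 of the 39 points lie below 0.

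Between the sets of mice the levels of these genes differed. With diet in the model, 38 of the 39 genes were lower in the 7 listed than in the 5 unlisted mice, where 52.2% of all genes were. Of these, 15 passed an adjusted p-value under 0.05, all of them lower, against 1.56% of all genes that were called lower. At an unadjusted p-value under 0.05, 29 were lower, against 7.99% of all genes. The median log2 fold change was -0.65, a level 1.57-fold higher in the unlisted mice, against -0.01 over all genes. For 13 genes every listed mouse lay below every unlisted one, which held for 0.907% of all genes. Ifit1 and Usp18 also passed the study's fold threshold of 1 on the log2 scale, which 0.610% of all genes did in that direction. In bulk tissue, fewer cells that express a gene and less of its RNA per cell cannot be told apart.

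The Ifit proteins, which bind viral RNA and block its translation, had a median log2 fold change of -1.01 over their 4 genes, the lowest of the 9 role groups. Ifit1 (ENSMUSG00000034459.8, chromosome 19, 34640871 to 34650009) was at 9.53 CPM in VDD1, 11 in VDD2, 9.19 in VDD3, 18.4 in VDS1 and 11.4 in VDS2. In the 7 listed mice its lowest, median and highest levels were 3.21, 5.49 and 9.16 CPM (log2 fold change -1.16, SE 0.17, adjusted p = 0.00310). VDS6 came closest to the unlisted mice, and the sets did not overlap. Ifit3 was at 11.9 CPM in VDD1, 15.9 in VDD2, 10.4 in VDD3, 14.5 in VDS1 and 10.1 in VDS2, against 4.60, 6.60 and 8.81 CPM for the lowest, median and highest of the 7 (log2 fold change -0.91, SE 0.19, adjusted p = 0.0256). Ifit3b, a copy of Ifit3, had a log2 fold change of -1.11 (unadjusted p = 0.00206, adjusted p = 0.0709). Fragments that map to both genes are not counted for either. Ifit2 had one of -0.51 (unadjusted p = 0.0531, adjusted p = 0.371), and its highest value was the 10.1 CPM of VDD2.

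Among the 5 tested members of the Oas family, whose enzymes make short adenylate chains that activate RNase L, 1 passed the adjusted threshold, against 1.56% of all genes. This was Oasl1, which lacks that activity and holds back translation of Irf7. Its level was 16 CPM in VDD1, 23.3 in VDD2, 17.8 in VDD3, 28 in VDS1 and 27.5 in VDS2, and 7.31, 12.4 and 16.4 CPM were the lowest, median and highest of the listed mice (log2 fold change -0.92, SE 0.21, adjusted p = 0.0377). VDD4, at 16.4 CPM, and VDS6, at 16.3 CPM, lay just above VDD1. Oas1a had a log2 fold change of -1.06 (unadjusted p = 0.00231, adjusted p = 0.0743) with no overlap between the sets, and Oas3 one of -0.83 (unadjusted p = 0.0138, adjusted p = 0.195). Oas2 and Oasl2 had values of -0.73 and -0.43 and passed neither mark.

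Isg15 is a ubiquitin-like protein that is joined to other proteins during the response. Usp18 (ENSMUSG00000030107.10, chromosome 6, 121245906 to 121270917), the protease that removes Isg15 and damps the type I receptor, was at 10.8 CPM in VDD1, 17.2 in VDD2, 9.11 in VDD3, 8.74 in VDS1 and 8.85 in VDS2. In the listed mice the lowest, median and highest levels were 3.31, 5.51 and 6.72 CPM (log2 fold change -1.03, SE 0.21, adjusted p = 0.0233). The sets did not overlap. Isg15 itself was at 5.81 CPM in VDD1, 6.52 in VDD2, 3.09 in VDD3, 4.94 in VDS1 and 5.25 in VDS2, against 2.52, 4.11 and 4.60 CPM in the other set, with a log2 fold change of -0.41 (unadjusted p = 0.0633, adjusted p = 0.402). Herc6, the ligase that attaches Isg15 in mice, had one of -0.63 (unadjusted p = 0.00711, adjusted p = 0.140).

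Of the 4 other tested antiviral effectors, 2 passed, where 1.56% of all genes were called lower. Cmpk2, a mitochondrial nucleotide kinase, was at 8.77 CPM in VDD1, 10.2 in VDD2, 8.66 in VDD3, 13.2 in VDS1 and 9.56 in VDS2, and the lowest, median and highest of the other 7 mice were 5.08, 5.91 and 8.07 CPM (log2 fold change -0.69, SE 0.15, adjusted p = 0.0309). Its neighbour on chromosome 12, Rsad2, encodes viperin and had a log2 fold change of -0.91 (adjusted p = 0.0327). Bst2, the most abundant of the 39 genes, was at 88.8 CPM in VDD1, 126 in VDD2, 63.3 in VDD3, 72.3 in VDS1 and 79.7 in VDS2, against 61, 70.3 and 88.8 CPM for the lowest, median and highest of the listed mice, with a log2 fold change of -0.17 (unadjusted p = 0.213, adjusted p = 0.638). Its highest listed mouse was level with VDD1 and above VDD3, VDS1 and VDS2, so the sets overlapped. Mx2 had one of -0.46 (unadjusted p = 0.177, adjusted p = 0.592).

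All 4 sensors of nucleic acid were lower at the unadjusted mark, as were 7.99% of all genes, and 1 at the adjusted one, as were 1.56%. Ddx58, which encodes the RNA sensor RIG-I (ENSMUSG00000040296.15, chromosome 4, 40203773 to 40239828), was at 37.1 CPM in VDD1, 41.5 in VDD2, 46.8 in VDD3, 51.5 in VDS1 and 40.5 in VDS2. The listed mice had 23.6, 30.3 and 34.1 CPM as their lowest, median and highest level (log2 fold change -0.65, SE 0.09, adjusted p = 0.00228). This was the smallest p-value of the 39 genes, and every one of the 5 mice lay above the other 7. Ifih1, a sensor of long double-stranded RNA with the highest TPM of the group, was at 48.8 CPM in VDD1, 54.2 in VDD2, 45.9 in VDD3, 45.2 in VDS1 and 46.9 in VDS2, against 37.3, 41.4 and 44.7 CPM, also without overlap, with a log2 fold change of -0.26 (unadjusted p = 0.00544, adjusted p = 0.120). Dhx58 had one of -0.48 (unadjusted p = 0.00340, adjusted p = 0.0938) and Zbp1, a sensor of Z-form nucleic acid, one of -0.58 (unadjusted p = 0.0207, adjusted p = 0.236).

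Each of the 3 transcription factors had a lower fitted level in the listed mice, and all 3 passed the adjusted threshold, against 52.2% and 1.56% of all genes. Irf7 (ENSMUSG00000025498.15, chromosome 7, 141262706 to 141266481) was at 45.2 CPM in VDD1, 57.7 in VDD2, 26.6 in VDD3, 43.3 in VDS1 and 43.3 in VDS2, and at 18, 26.9 and 29.8 CPM for the lowest, median and highest of the 7 mice (log2 fold change -0.89, SE 0.16, adjusted p = 0.0124). VDD3 alone of the 5 fell within the range of the other set. Irf9 was at 31.1 CPM in VDD1, 30.0 in VDD2, 28.2 in VDD3, 36.8 in VDS1 and 33.3 in VDS2, against 21, 23.2 and 30.8 CPM (log2 fold change -0.41, SE 0.09, adjusted p = 0.0272), and VDS5 and VDS6 reached into the range of the 5 mice. Stat2 was at 62.7 CPM in VDD1, 54.5 in VDD2, 57.6 in VDD3, 62.1 in VDS1 and 52.6 in VDS2, against 37.4, 45.3 and 52.2 CPM (log2 fold change -0.36, SE 0.09, adjusted p = 0.0450). The sets did not overlap for Stat2, by a gap between 52.2 CPM in VDS3 and 52.6 CPM in VDS2.

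The 6 interferon-inducible GTPases, which act on intracellular pathogens and their vacuoles, all had negative log2 fold changes between the sets. None passed the adjusted threshold and 5 passed the unadjusted one, where 7.99% of all genes did in that direction. Iigp1 was at 229 CPM in VDD1, 254 in VDD2, 206 in VDD3, 289 in VDS1 and 245 in VDS2, and the other set at 157, 196 and 292 CPM for its lowest, median and highest level, with a log2 fold change of -0.34 (unadjusted p = 0.0103, adjusted p = 0.170). VDS5 was the highest of all 12 mice for Iigp1, so the sets overlapped. Gbp2 had a log2 fold change of -0.75 (unadjusted p = 0.00600, adjusted p = 0.127), Gbp3 of -0.73 (unadjusted p = 0.0144, adjusted p = 0.200) and Irgm1 of -0.34 (unadjusted p = 0.00198, adjusted p = 0.0691). Igtp, which shares sequence on the same strand with Irgm2, had one of -0.36 (unadjusted p = 0.0211, adjusted p = 0.238), and Ifi47, which overlaps Olfr56, one of -0.13 (unadjusted p = 0.548, adjusted p = 0.856).

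For antigen processing, Psmb8 (ENSMUSG00000024338.14, chromosome 17, 34197721 to 34201454), a catalytic subunit of the immunoproteasome, was at 22.8 CPM in VDD1, 30.5 in VDD2, 22.4 in VDD3, 25.8 in VDS1 and 27.7 in VDS2. The lowest, median and highest of the listed mice were 10.5, 16.9 and 20.7 CPM (log2 fold change -0.79, SE 0.12, adjusted p = 0.00445), without overlap. Tap1, which carries peptides into the endoplasmic reticulum, was at 32.8 CPM in VDD1, 44.6 in VDD2, 27.2 in VDD3, 34.5 in VDS1 and 33.1 in VDS2, against 15.4, 22.9 and 25.9 CPM (log2 fold change -0.72, SE 0.15, adjusted p = 0.0233), again without overlap. Psmb9, another immunoproteasome subunit that overlaps Tap1 on the opposite strand and was counted by strand, had a log2 fold change of -0.72 (unadjusted p = 0.00772, adjusted p = 0.146).

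Of the 7 remaining genes, 3 passed, against 1.56% of all genes. Xaf1, a promoter of apoptosis, was at 4.99 CPM in VDD1, 5.12 in VDD2, 3.92 in VDD3, 5.73 in VDS1 and 4.54 in VDS2, against 1.92, 2.94 and 3.33 CPM (log2 fold change -0.84, SE 0.17, adjusted p = 0.0198). Rtp4, a receptor transporter protein, was at 10.4 CPM in VDD1, 18.2 in VDD2, 10.1 in VDD3, 17.2 in VDS1 and 11.4 in VDS2, against 6.05, 8.12 and 9.80 CPM (log2 fold change -0.77, SE 0.16, adjusted p = 0.0268). Neither overlapped between the sets, and the highest mouse was VDS1 for Xaf1 and VDD2 for Rtp4. Parp14, an ADP-ribosyltransferase, was at 59.7 CPM in VDD1, 81 in VDD2, 52.9 in VDD3, 80.2 in VDS1 and 56.5 in VDS2, against 34.5, 45.3 and 57.6 CPM (log2 fold change -0.64, SE 0.13, adjusted p = 0.0206), and only VDS6 of the 7 mice reached into the range of the 5. Ifi27 was at 54 CPM in VDD1, 103 in VDD2, 29.7 in VDD3, 42.7 in VDS1 and 57.2 in VDS2, against 33.7, 47.7 and 59.5 CPM, with a log2 fold change of -0.26 (unadjusted p = 0.273, adjusted p = 0.697). Ifi44 had one of -1.14 (unadjusted p = 0.00508, adjusted p = 0.117) and Trim30a one of -0.42 (unadjusted p = 0.119, adjusted p = 0.510). Ifi35, at 0.02 (unadjusted p = 0.889), was the only tested gene with a positive value.

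**Figure D3:**
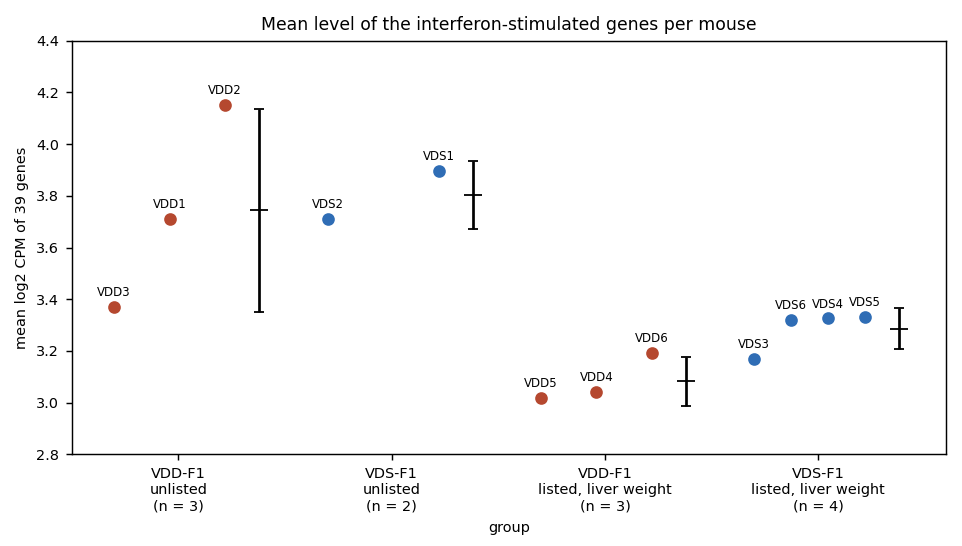
Mean log2 CPM of the 39 tested genes in each mouse (points, labelled, red for VDD-F1 and blue for VDS-F1), by diet and by set, with the mean ± SD of each group as a bar to the right. The 7 listed mice lie between 3.02 and 3.33 and the 5 unlisted mice between 3.37 and 4.15.

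The mean log2 CPM over the 39 genes ordered the mice by set. It averaged 3.20 ± 0.13 over listed (SD, n = 7) and 3.77 ± 0.29 over unlisted mice (SD, n = 5). By diet it averaged 3.41 ± 0.44 over VDD-F1 and 3.46 ± 0.28 over VDS-F1 animals (SD, 6 of each). VDD3, at 3.37, was the lowest of the unlisted mice, and VDS5, at 3.33, was the highest of the listed ones. The order within a diet was the same. For VDD-F1 it was 3.08 ± 0.09 in listed and 3.74 ± 0.39 in unlisted mice (SD, n = 3 each). For VDS-F1 it was 3.29 ± 0.08 in listed (SD, n = 4) and 3.80 ± 0.13 in unlisted mice (SD, n = 2).

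The set comparison was repeated within each diet, on separate mice. In the 6 VDD-F1 mice, 38 of the 39 genes were lower in listed mice, against 51.9% of all genes, and 24 passed the unadjusted mark, where 6.46% of all genes did in that direction, and the median log2 fold change was -0.71. In the 6 VDS-F1 mice, 38 were lower against 50.7% of all genes, 19 passed that mark against 7.36% of all genes, and the median was -0.44. After adjustment 0 passed within VDD-F1 and 2 within VDS-F1, Oasl1 and Irf7, against 0.145% and 0.859% of all genes. The log2 fold change of Ifit1 was -1.17 within VDD-F1 and -1.16 within VDS-F1, that of Ddx58 -0.75 within VDD-F1 and -0.53 within VDS-F1 and that of Irf7 -1.11 within VDD-F1 and -0.63 within VDS-F1. Ifi47 was the gene that was not lower within VDD-F1 and Ifi35 the one that was not lower within VDS-F1.

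**Figure D4:**
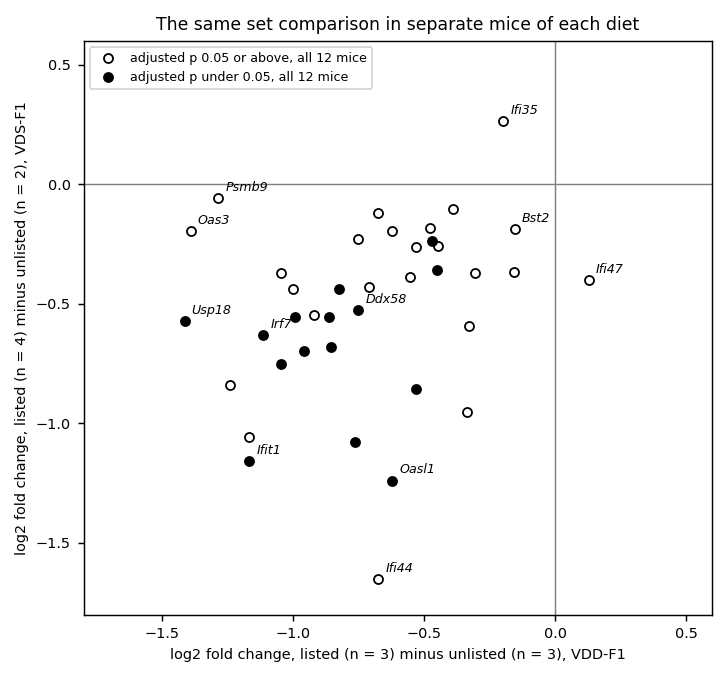
Log2 fold change of each of the 39 genes between listed and unlisted mice, within VDD-F1 (x axis, 3 against 3 mice) and within VDS-F1 (y axis, 4 against 2 mice). All points but Ifi47 and Ifi35 lie below 0 on both axes, and filled points mark the 15 genes with an adjusted p-value under 0.05 over all 12 mice.

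Leaving out single mice changed how many genes passed. The count of 15 fell to 5 without VDD5 or without VDS1, to 6 without VDD4, to 8 without VDD6 and to 9 without VDS3 or without VDS4, and it was 11 to 15 without each of the others. The share of all genes called lower was 0.723% to 0.940% in the fits with 5 to 9 genes and 0.891% to 2.75% in the others. Ifit1, Ddx58, Irf7 and Psmb8 passed in all 12 of these fits. Without VDD2, the mouse with the highest levels, 15 genes passed and the median log2 fold change was -0.52. DESeq2's Wald test called 22 genes lower, all 15 of them included, and none higher, against 4.67% of all genes in either direction.

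Whether the diets differed to the same degree in both sets was tested with an interaction term. None of the 39 genes passed after adjustment, against 0.0883% of all genes, and 3 passed at an unadjusted p-value under 0.05, against 9.01%. Psmb9 had an interaction on the log2 scale of -1.23 (SE 0.32, unadjusted p = 0.00200, adjusted p = 0.224). It was at 5.63, 6.42 and 5.41 CPM in the listed VDD-F1 mice. The other 9 mice were all higher, at 9.09 to 19.5 CPM. DESeq2 gave Psmb9 an interaction of -1.25 (adjusted p = 0.0448), the only one of the 39 it called, against 1.11% of all genes. Oas3 and Usp18 had interactions of -1.19 (SE 0.50, unadjusted p = 0.0329, adjusted p = 0.510) and -0.84 (SE 0.37, unadjusted p = 0.0395, adjusted p = 0.521).

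Within the 7 listed mice, 9 of the 39 genes differed between the diets after adjustment. Of these, 7 were lower in VDD-F1, against 5.12% of all genes, and 2 higher, against 5.85%. At an unadjusted p-value under 0.05 there were 13, against 25.5%. The 7 were Ddx58, Irf7, Iigp1, Psmb8, Psmb9, Ifi35 and Parp14, with log2 fold changes from -0.89 for Psmb9 to -0.36 for Ddx58. Bst2, at 0.32, and Ifi27, at 0.53, were higher in VDD-F1. In the 5 unlisted mice 0 passed after adjustment and 1, Oasl1, at an unadjusted p-value under 0.05, against 3.79% of all genes. Of these genes the interaction was called for Psmb9 alone, and by DESeq2 but not by edgeR, so for the others the diet effects were not shown to differ between the sets.

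Genes upstream and beside the 41 were read from the same fits. Interferon ligands were near absent: 2 of 21, Ifnk and Ifnz, had any count, with 1 fragment in 1 mouse each. Of the receptors, 5 of 6 were tested and 0 passed after adjustment between the sets. Ifnar1 and Ifnar2, which form the type I receptor, had log2 fold changes of -0.03 (unadjusted p = 0.746, adjusted p = 0.931) and 0.03 (unadjusted p = 0.792, adjusted p = 0.947) between the sets. Il10rb, part of the type III receptor, had one of 0.08 (unadjusted p = 0.747, adjusted p = 0.931). Between the diets, Ifngr1 and Ifngr2, which form the type II receptor, had log2 fold changes of 0.52 (SE 0.17, unadjusted p = 0.00895, adjusted p = 0.167) and 0.50 (SE 0.15, unadjusted p = 0.00432, adjusted p = 0.127), and the VDD2 mouse was highest for both at 29.4 and 41.8 CPM.

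Among 10 signal transducers, 1 passed between the sets, against 1.56% of all genes called lower. It was Stat3, which conveys mainly interleukin signals, at -0.50 (adjusted p = 0.0343). Of the 5 tested inhibitors and the 11 tested upstream sensors and adaptors, 0 passed after adjustment in either comparison. The 2 smallest diet p-values among the transducers were those of Irf8, with a log2 fold change of 0.59 (SE 0.22, unadjusted p = 0.0194, adjusted p = 0.225), and Irf2, with one of -0.30. Among the inhibitors they were those of Socs3, with one of 0.82 (SE 0.32, unadjusted p = 0.0211, adjusted p = 0.233), and Ptpn1, with one of -0.11. Among the sensors they were those of Tlr4, with one of 0.81 (SE 0.22, unadjusted p = 0.00235, adjusted p = 0.109), and Tlr9 (unadjusted p = 0.0162), both with positive values. Tlr4, Irf8 and Tlr9 are expressed by macrophages or dendritic cells.

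A further 51 interferon-induced genes that are not among the 41 formed a second list, of which 48 were tested. Between the sets 40 of the 48 were lower in listed mice, 20 passed the unadjusted mark in that direction and 3 the adjusted one, where the shares of all genes were 52.2%, 7.99% and 1.56%, with a median log2 fold change of -0.27. The 3 were Ifitm3, which blocks virus entry, at -0.54 (adjusted p = 0.00310), Parp9 at -0.35 (adjusted p = 0.0269) and Uba7, which activates Isg15, at -0.65 (adjusted p = 0.0443). Between the diets 0 passed after adjustment, and the smallest p-values were those of Trim21, at -0.50 (SE 0.18, unadjusted p = 0.0135, adjusted p = 0.197), and Znfx1, at -0.36. Of 13 genes of class I antigen presentation, 11 were lower between the sets and 5 of them passed after adjustment, against the same 52.2% and 1.56% of all genes. They were H2-D1 at -0.60 (adjusted p = 0.00190), H2-T23 at -0.56 (adjusted p = 0.00336), H2-K1 at -0.43 (adjusted p = 0.0297), H2-T22 at -0.43 (adjusted p = 0.0292) and H2-Q7 at -1.40 (adjusted p = 0.00248). The H2 genes are alike in sequence, and fragments that map to more than 1 place are not counted for any gene, so the value of each is uncertain. Psme1 and Erap1 had the smallest diet p-values of that list, at -0.21 and -0.24, and 0 passed after adjustment.

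Markers of cell types were read beside these results. All 10 markers of Kupffer cells, the resident macrophages of the liver, were lower in listed mice, with a median log2 fold change of -0.40, 2 at an unadjusted p-value under 0.05 (Timd4 and Cd5l) and 0 after adjustment, where 52.2% of all genes were lower and 7.99% were so at the unadjusted mark. Their summed level was 228 to 372 CPM in listed and 259.7 to 559 CPM in unlisted mice. With the mean log2 level of these 10 markers as a covariate, an alternative chosen after seeing the data, 4 of the 39 genes (Ifit1, Ddx58, Irf7 and Psmb8) passed after adjustment against 0.972% of all genes, 23 were lower at the unadjusted mark against 7.35%, and the median was -0.46. Hepatocyte markers had a median of 0.08, with 5 of 8 higher. Among them Ass1, at 0.39, and Apoa1, at -0.37, were past the unadjusted mark. Of 7 endothelial markers 6 were higher, with a median of 0.07, and 3 were past the unadjusted mark, as were 5.87% of all genes in that direction. All 6 tested markers of monocytes and recruited macrophages had negative values, with a median of -0.36, as did 5 of 6 stellate cell markers, with a median of -0.20, and 4 of 5 cholangiocyte markers, with a median of -0.22. None of these lists had a marker past the adjusted threshold, and none of the last 3 had one past the unadjusted mark. Of 6 markers of plasmacytoid dendritic cells, a main source of type I interferon, 4 were not tested, among them Siglech and Ccr9 with mean counts of 11.2 and 6.17, and the 2 that were tested did not pass between the sets. Of 10 T and NK cell markers 2 were tested, of 5 B cell markers 1 and of 5 neutrophil markers 1, and none passed. No defining marker of these lists was at 0 in all mice.

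Between the diets, the 6 tested markers of monocytes and recruited macrophages were all higher in VDD-F1 at an unadjusted p-value under 0.05 where 15.8% of all genes passed in either direction, and 0 after adjustment, with a summed level of 20.5 to 186 CPM in VDD-F1 against 26.0 to 42.2 CPM in VDS-F1 animals. The 186 CPM were those of VDD2. Other marker lists also had members past the unadjusted mark between the diets. All 5 cholangiocyte markers had positive values, 3 of them past the mark, with a summed level of 23.9 to 115 CPM in VDD-F1 against 27.6 to 51.0 CPM in VDS-F1 animals. Of 6 stellate cell markers 3 were past it with positive and 1 with negative values, and of 7 endothelial markers 1 and 2. Of 10 Kupffer cell markers 5 had positive and 5 negative values, with a median of -0.05, and 2 of the negative ones, Clec4f and Timd4, were past it. Ly6d of the plasmacytoid and Itgax of the conventional dendritic cell markers had log2 fold changes of 3.18 (unadjusted p = 0.000260) and 2.33 (unadjusted p = 0.00105). VDD2 was highest for both. The other tested marker of each list, Tcf4 and Zbtb46, had values of 0.09 (unadjusted p = 0.511) and -0.13 (unadjusted p = 0.294). Serpina1c, at -0.60 (unadjusted p = 0.000668), was past the mark among 8 hepatocyte markers, 6 of them positive. Cd4 had -0.91 (unadjusted p = 0.00344) and Cd3e, the other tested T and NK cell marker, 0.61 (unadjusted p = 0.365). None of them passed after adjustment. The part of all these cells in the levels of the 39 genes was not tested.

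Genes with and without the ISRE core were set side by side for the comparison of the sets. The median log2 fold change was -0.69 over 16 tested genes with the core in a window and -0.70 over 14 tested genes without it. Of the 12 genes that passed the adjusted threshold and had a window, 5 held the core. Outside all lists, the 3 genes whose log2 CPM over the 12 mice was most like the mean of the 39 genes were Rnf213 (Pearson r = 0.92), Gstp3 (r = 0.92) and Steap4 (r = 0.89), given as a description over mice that share the split by set.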

How the data were processed

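Liver RNA was measured by RNA-seq after depletion of ribosomal RNA. The authors trimmed the reads, aligned them to mm10 with STAR (version not given in the sources used here) and deposited, without normalization, the raw count of fragments on each gene of GENCODE M15. The reverse-strand count was used, which held 92.7% to 95.8% of the stranded counts. Symbols and lengths came from GENCODE M21 on GRCm38.

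Counts were normalized with TMM in edgeR 4.0.16 (R 4.3.3). The quasi-likelihood test in its legacy form was run on genes whose mean count was 12 or more, and p-values were adjusted by Benjamini-Hochberg over 12453 genes, with thresholds of an adjusted p-value of 0.05 and a log2 fold change of 1. The study's methods name DESeq2. The SE is the fold change divided by the square root of F. Diet was tested alone, the sets of mice with diet in the model, and their interaction with both. Alternatives were DESeq2 1.42.0, voom in limma 3.58.1, other filters and scalings, the count without strand, each set or diet alone, a replicate block and each mouse left out. The methods were tested on simulated data. Tables and figures used pandas 2.3.3, NumPy 2.4.6 and matplotlib 3.10.9.

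Members, lists and the split into listed and unlisted mice were chosen with earlier results of these data known. Values of the unlisted mice one by one, and the range and median of the listed mice, are given for the 12 members with the smallest p-values over the 3 fits, the member with the highest TPM in each role group and the transcription factors. Of the other pathway genes, the receptors and the 2 smallest diet p-values per list are named, and the rest were chosen after their values were seen.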

Additional observations from a re-analysis of the deposited data

Results flagged for a closer look

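Single mice stood apart from the rest of their diet group in 9 of 78 comparisons of a gene and a group, by the gap to the nearest mouse relative to the group's range (Dixon's 95% limit), where chance alone gives about 1 in 20, or 3.9. Of the 9, 6 fell on VDD2, an unlisted mouse. VDD2 had 10.1 CPM of Ifit2 with the other VDD-F1 mice at 3.16 to 4.67, 6.84 CPM of Oas1a against 1.21 to 3.28, and 13.8 CPM of Oasl2 against 5.05 to 6.38. It also had 10.8 CPM of Zbp1 against 3.82 to 5.18, 13.7 CPM of Gbp2 against 3.98 to 6.93, and 18.2 CPM of Rtp4 against 6.05 to 10.4. VDS1, also unlisted, had 5.53 CPM of Ifit3b against 1.72 to 3.07 in the other VDS-F1 mice, 17.2 CPM of Rtp4 against 8.12 to 11.4, and 80.2 CPM of Parp14 against 45.3 to 57.6. The genes are not independent of each other, and why these mice stood apart was not tested.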

How the results depend on the processing

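Between the diets, 0 of the 39 genes passed after adjustment under DESeq2, voom, the other filters and scalings and the count without strand. The same held for the set as a covariate, the replicate block and each mouse left out. In the main fit 0.0402% of all genes passed, and the share under these alternatives is not given, so a count of 0 does not set the 39 genes apart. In the listed mice alone 9 passed, where 5.12% of all genes were called lower and 5.85% higher. At an unadjusted p-value under 0.05 the count of 4, against 15.8% of all genes, became 10 with the set as a covariate (17.0% of all genes). It was 13 in the listed mice (25.5% of all genes) and 1 in the unlisted mice (3.79%). The count was 1 to 5 when each mouse was left out, 5 with DESeq2 and 6 with voom. For these last fits the share of all genes is not given, so their counts are not compared with it.

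Between the sets, the median log2 fold change stayed negative in every alternative run, from -0.73 to -0.52 when each mouse was left out. The count of 15 genes past the adjusted threshold, against 1.56% of all genes called lower, was 5 to 15 when each mouse was left out (0.723% to 2.75%). It was 0 within VDD-F1 (0.145%) and 2 within VDS-F1 alone (0.859%), and 4 with the Kupffer marker level as a covariate (0.972%). The count of 2 that also passed the fold threshold, against 0.610% of all genes, was 1 to 4 when each mouse was left out and 5 with DESeq2. It was 1 with the count without strand, 0 within VDD-F1 and 1 within VDS-F1 alone, and 1 with the Kupffer covariate. The share of all genes past both thresholds is not given for these alternatives, so their counts are not compared with it. At an unadjusted p-value under 0.05, the count of 29 genes, against 7.99% of all genes, was 24 within VDD-F1 (6.46%) and 19 within VDS-F1 alone (7.36%). It was 27 to 37 when each mouse was left out, where the share of all genes at that mark is not given.

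Replicate numbers name different mice and do not pair them: same-numbered mice deviated from their group means with correlations of -0.08 to 0.10, and 0 of 6 correlated best with its own number. With a replicate block, 0 genes passed after adjustment between the sets, 0 with the fold threshold and 4 at the unadjusted mark, with a median of -0.40. In that fit number 3 alone distinguishes the sets. The share of all genes under the replicate block is not given, so these counts are not compared with it. For the interaction, 1 gene, Psmb9, passed both thresholds with DESeq2. The count of 3 at the unadjusted mark, against 9.01% of all genes, was 1 to 7 when each mouse was left out. The shares of all genes past both thresholds with DESeq2, and in the fits with a mouse left out, are not given. The counts of those fits are therefore not compared with all genes.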
